A study of Arabidopsis thaliana with 6 samples.

Results

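The 10 genes described here encode enzymes and enzyme-like proteins of leaf starch breakdown in Arabidopsis thaliana. They were chosen by gene identifier (GWD1, PWD, SEX4, BAM1, BAM3, BAM5, BMY3, ISA3, DPE1 and DPE2) from the 34014 genes listed in any of the deposited tables. The choice was made with earlier results of these data known, and all 10 were found in all 3 tables. Messenger RNA of rosette leaves of the Columbia ecotype was compared between ibm1-3, a mutant allele of the histone demethylase gene IBM1, and wild type (WT). For high light, 2 ibm1-3 and 2 WT libraries were made from 30-day plants exposed for 48 hours. For low light, 1 ibm1-3 and 1 WT library were made from 40-day plants. All plants were grown in a greenhouse under long days, and the labels do not give the hour of harvest or how many plants entered a library. Since no label states that replicates are separate plants, the p-values may reflect technical spread alone.

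Leaves store part of the day's photosynthate as starch in the chloroplast and degrade it at night. Glucan phosphorylation by GWD1 and PWD opens the granule surface, SEX4 removes the phosphate again, and beta-amylases release maltose. ISA3 cuts branch points, DPE1 recycles short glucans in the plastid, and DPE2 uses exported maltose in the cytosol. Transcripts of many of these genes are known to follow the daily clock.

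Each numbered high light pair, 1 library of either genotype, has a separate table, so genotypes were compared within a pair. High light pair 1 held 12502408 estimated fragments for ibm1-3 and 12121246 for WT. No depth was stated for pair 2 (its smallest values correspond to roughly 21500000 fragments for ibm1-3 and 21200000 for WT). For the low light pair 13099267 reads for ibm1-3 and 15425082 for WT were recovered from its normalized values. IBM1 itself had 17.6 and 7.46 FPKM (fragments scaled to gene length and library total) in the ibm1-3 high light libraries of pairs 1 and 2, against 13.81 and 8.34 FPKM in the WT ones, and 399 reads in ibm1-3 against 643 in WT in low light. With a log2 fold change of 0.09 ± 0.13 after high light (SE, limma adjusted p = 0.526), its level does not check the high light labels. The 5 mesophyll markers summed to 3678.8 and 6630.93 FPKM in ibm1-3 and 20663.5 and 32476.1 FPKM in WT in high light, and all 5 fell. In low light they summed to 6028 in ibm1-3 and 9067 in WT, scaled likewise, and all but RCA were lower in ibm1-3 on this scale, RCA too once TMM scaling was used. Of the 7 phloem and vessel markers 5 rose and 0 fell, with sums of 447.55 and 549.33 FPKM in ibm1-3 and 233.57 and 281.67 FPKM in WT, and 0 of these 7 were listed at 0 in any high light library. SUC2, PP2-A1, XCP1, XCP2 and IRX3 rose, while APL and SEOR1 did not pass, and with size factors 4 rose and 1, SEOR1, fell. Over all genes tested 49.2% rose and 26% fell. Without the replicate number as a block only PP2-A1 and XCP2 of these 7 rose, and 3 of the 5 mesophyll markers fell. Over all genes 18.2% rose and 8.4% fell without it. SUC2 overlapped between genotypes, and XCP1 and IRX3 stayed at or below 2.99 FPKM in high light. Sums were 37.19 and 36.61 FPKM in ibm1-3 and 42.9 and 36.56 FPKM in WT for guard cells, 219.27 and 417.12 FPKM in ibm1-3 and 127.47 and 220.4 FPKM in WT for epidermis and trichomes, and 37.72 and 56.13 FPKM in ibm1-3 and 11.57 and 16.53 FPKM in WT for root, where 3 of 4 markers rose. Of the 5 epidermis and trichome markers 3 rose and 2, CER1 and GL2, fell. Of the 4 guard cell markers that were tested 1 rose and 2 fell. Without the block 0 guard cell markers rose and 0 fell, and 1 root marker rose and 0 fell. Of the epidermis and trichome markers 2 then rose and 1 fell. With size factors 0 guard cell markers rose and 2 fell, and 3 root markers rose and 1 fell. Over all genes 39.1% rose and 34.9% fell with size factors. The root markers NRT2.1 and PYK10 stayed at or below 2.96 FPKM in high light. The 4 flower markers together stayed at or below 1.75 FPKM in every library, and AG, AP1, AP3 and PI were all too low to be tested. In these bulk samples fewer cells of a type and less RNA per cell cannot be told apart.

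The members lie on all 5 chromosomes. In the coordinates of the pair 1 table, on the TAIR10 build that the submitters' notes name, GWD1 (AT1G10760) spans chr1:3581034-3590928 on the reverse strand, DPE2 (AT2G40840) chr2:17044932-17051062 on the forward strand, SEX4 (AT3G52180) chr3:19349652-19353632 on the reverse strand and BAM1 (AT3G23920) chr3:8641181-8644449 on the forward strand. On chromosome 4 lie BAM3 (AT4G17090, chr4:9604962-9607402, reverse), BAM5 (AT4G15210, chr4:8666338-8669470, reverse) and ISA3 (AT4G09020, chr4:5783909-5789100, forward). On chromosome 5 lie BMY3 (AT5G18670, chr5:6225956-6228195, forward), PWD (AT5G26570, chr5:9261580-9267729, forward) and DPE1 (AT5G64860, chr5:25925173-25928879, reverse).

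The 250 bases before the gene start are shown for the 4 members that hold an evening element or a G-box, motifs described below. Among these 4 are the members with the highest and the lowest fold change after high light. The windows were read from RefSeq TAIR10.1 at chr4:5783659-5783908 (ISA3, forward strand), chr5:9261229-9261478 (PWD, forward), chr5:6225706-6225955 (BMY3, forward) and chr5:25928880-25929129 (DPE1, reverse), and are printed 5′ to 3′ toward the gene. Capitals mark the motifs found. Positions are counted from the RefSeq gene start, which for PWD is base 9261479 of chromosome 5, before the start in the pair 1 table.
ISA3: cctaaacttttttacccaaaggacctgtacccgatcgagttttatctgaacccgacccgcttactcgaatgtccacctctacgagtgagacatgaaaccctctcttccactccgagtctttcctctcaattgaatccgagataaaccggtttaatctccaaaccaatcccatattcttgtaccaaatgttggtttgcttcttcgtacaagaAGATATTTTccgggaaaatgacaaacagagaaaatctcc
PWD: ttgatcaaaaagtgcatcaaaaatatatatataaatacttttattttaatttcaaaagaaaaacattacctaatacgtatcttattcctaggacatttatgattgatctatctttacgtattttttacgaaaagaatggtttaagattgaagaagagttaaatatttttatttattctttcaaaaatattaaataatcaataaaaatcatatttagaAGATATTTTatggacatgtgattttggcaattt
BMY3: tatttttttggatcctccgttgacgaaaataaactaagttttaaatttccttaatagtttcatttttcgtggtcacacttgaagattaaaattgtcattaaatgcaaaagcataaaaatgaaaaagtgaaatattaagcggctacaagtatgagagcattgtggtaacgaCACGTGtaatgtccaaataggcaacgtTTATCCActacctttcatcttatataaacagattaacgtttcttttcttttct
DPE1: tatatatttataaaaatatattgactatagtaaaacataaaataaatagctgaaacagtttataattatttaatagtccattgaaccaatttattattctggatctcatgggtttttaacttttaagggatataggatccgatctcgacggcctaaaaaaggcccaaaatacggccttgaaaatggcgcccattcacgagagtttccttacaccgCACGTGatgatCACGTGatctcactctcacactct
The capitals in ISA3 and PWD are the evening element AAAATATCT read on the other strand as AGATATTTT, a motif known from clock-controlled genes of the evening. It begins 39 bases before the ISA3 start and 33 bases before the PWD start, and 2.36% of 27443 windows of protein-coding genes hold it. The G-box CACGTG, a site of light and clock factors, stands once before BMY3, at 80 bases, and in 2 copies before DPE1, at 35 and 24 bases, against 6.49% of all windows. The other capitals of BMY3 are the overlapping sugar motifs TTATCC, which is in 12.5% of windows, and TATCCA, in 13.6%. Of the others, GWD1 holds TTATCC at 175 bases and DPE2 the CCA1 binding site AAAAATCT at 57 bases, a motif in 6.69% of windows. The W-box TTGACC (12.2% of windows) was in no member window, and all motifs were searched on both strands. BAM1, BAM3, BAM5 and SEX4 held none of these letters in the window. A match is a description of the sequence and not a bound site.

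After 48 hours of high light GWD1, PWD, SEX4, BAM5, ISA3, DPE1 and DPE2 were higher in ibm1-3 than in WT and BMY3 was lower, whereas BAM1 and BAM3 differed by less than 2-fold. Fold changes are on the log2(FPKM + 1) scale, positive where ibm1-3 is higher, and a gene passed at a limma adjusted p under 0.05 over all 17399 genes tested. On simulated data, where far fewer genes changed than passed here, 18.5% of the calls of this test were false. That share cannot be carried over to the real data, but adjusted p-values near 0.05 are treated as weak. By that rule 8 of the 10 members rose and 2 fell in ibm1-3, beside 49.2% of all genes that rose and 26% that fell, 75.2% in either direction. Since most genes passed, the count alone says little about the members, and sizes are given with every call. The median fold change of the 10 was 2.43 on the log2 scale against 0.25 over all genes tested. Rescaling with size factors within each pair moved the median of all genes to 0.05 and that of the members to 2.20, with 7 rising, 2 falling and 1 not passing, beside 39.1% of all genes that rose and 34.9% that fell, 74% in either direction. Counting changes of at least 4-fold that passed, 6 members rose and 1 fell, beside 4.4% and 2.47% of all genes. Since the members were chosen with earlier results of these data known, such contrasts with all genes, here and below, are descriptions and not independent support.

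**Figure D1:**
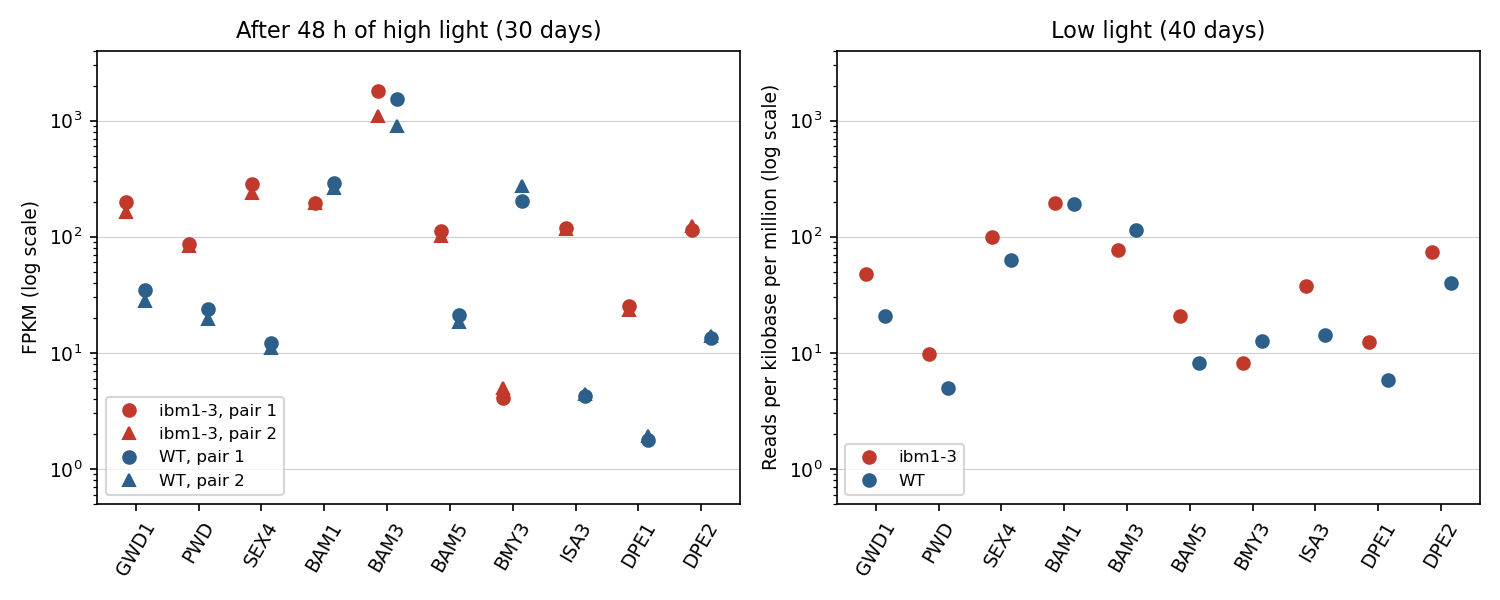
Levels per gene length (log axes) of the 10 starch breakdown genes after high light (left, FPKM, circles for pair 1 and triangles for pair 2) and in low light (right, RPKM, 1 library per genotype), with ibm1-3 in red and WT in blue. SEX4, ISA3, DPE1 and DPE2 lie high in red and low in blue after high light, and BMY3 lies at 4.08 and 4.98 FPKM in ibm1-3 against 204.35 and 273.35 FPKM in WT.

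GWD1, PWD and SEX4, which add and remove phosphate on starch, rose. GWD1, the glucan water dikinase that starts breakdown, had 197.1 and 164.17 FPKM in the ibm1-3 libraries of pairs 1 and 2, against 34.78 and 27.92 FPKM in WT. Both ibm1-3 libraries were high, both WT libraries were low, and the groups did not overlap. The log2 fold change was 2.49 ± 0.06 (SE, limma adjusted p = 5.94e-08). PWD, the dikinase that acts on glucans already phosphorylated by GWD1, had 86.66 and 83.43 FPKM in ibm1-3 and 23.78 and 19.44 FPKM in WT. Again the genotypes were clearly apart, by 1.93 ± 0.08 on the log2 scale (SE, limma adjusted p = 4.85e-07). Without the WT library of pair 2 and with no block, the adjusted p of PWD in limma was 0.0533 at a log2 fold change of 1.80.

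SEX4, the phosphoglucan phosphatase, had 282.14 and 238.29 FPKM in ibm1-3, against 12.18 and 11.06 FPKM in WT. Its ibm1-3 levels were 23.2-fold and 21.5-fold the WT levels of the same pair. With a log2 fold change of 4.37 ± 0.06 (SE, limma adjusted p = 1.79e-08) it ranked 42 from the top among all genes tested. The ratio of SEX4 to GWD1, both taken per length, was 1.43 and 1.45 in ibm1-3 and 0.350 and 0.396 in WT, so the phosphatase transcript exceeded that of the dikinase in ibm1-3 and fell short of it in WT after high light. In low light the ratio was 2.103 in ibm1-3 and 3.03 in WT, above 1 in both. GWD1 to PWD was 2.27 and 1.97 in ibm1-3 against 1.46 and 1.44 in WT after high light, and 4.87 in ibm1-3 against 4.15 in WT in low light.

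The beta-amylase genes did not move together. BAM3, the main plastid beta-amylase of mesophyll cells at night, was the most abundant member in every high light library. It had 1805.4 and 1103.02 FPKM in ibm1-3, against 1539.3 and 900.33 FPKM in WT, and the genotypes overlapped because pair 1 was higher than pair 2 in both. Within pairs ibm1-3 was 1.17-fold and 1.23-fold the WT level. The log2 fold change was 0.26 ± 0.07 (SE, limma adjusted p = 0.00943), which lies at percentile 50.6 of all fold changes. With size factors it was 0.03 (limma adjusted p = 0.641), without the block the adjusted p was 0.693, and it took the opposite sign, -0.09 or -0.13, without the ibm1-3 library of pair 1 or the WT library of pair 2.

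BAM1, a plastid beta-amylase known from guard cells and from stress, had 194.85 and 195.93 FPKM in ibm1-3, against 288.71 and 262.54 FPKM in WT. Both ibm1-3 libraries were below both WT libraries, and the log2 fold change was -0.49 ± 0.06 (SE, limma adjusted p = 0.000237). The call rests on the block: the adjusted p was 0.132 without it and 0.435 to 0.566 with 1 library left out. BAM5, the main beta-amylase outside the plastid and known from the phloem, had 111.87 and 102.03 FPKM in ibm1-3, against 21.17 and 18.54 FPKM in WT. It rose with no overlap, by 2.37 ± 0.06 on the log2 scale (SE, limma adjusted p = 9.51e-08). After high light BAM5 was higher beside 5 of the 7 phloem and vessel markers given above (2 without the block). The phloem markers among these 5 were SUC2, which overlapped between genotypes, and PP2-A1. XCP1, XCP2 and IRX3 are vessel markers. The phloem markers APL and SEOR1 did not pass, and SEOR1 fell with size factors. The part of these 7 markers in the result was not tested. In low light all 5 of the 7 that could be measured had TMM-scaled ratios below 0, with a median of -0.26, where BAM5 had 1.07.

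BMY3, also called BAM9, a plastid protein of the beta-amylase family known as catalytically inactive, moved in the opposite direction and by more than any other member. It had 4.08 and 4.98 FPKM in ibm1-3, against 204.35 and 273.35 FPKM in WT, from 102 estimated fragments in ibm1-3 and 4954 in WT in pair 1. The ibm1-3 level was 0.0200 and 0.0182 of the WT level. The log2 fold change was -5.43 ± 0.07 (SE, limma adjusted p = 1.48e-08), rank 10 from the bottom among all genes tested. Within its own library BMY3 stood at percentiles 35.5 and 37.1 of 20748 genes in ibm1-3 and at 97.9 and 98.3 in WT.

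**Figure D2:**
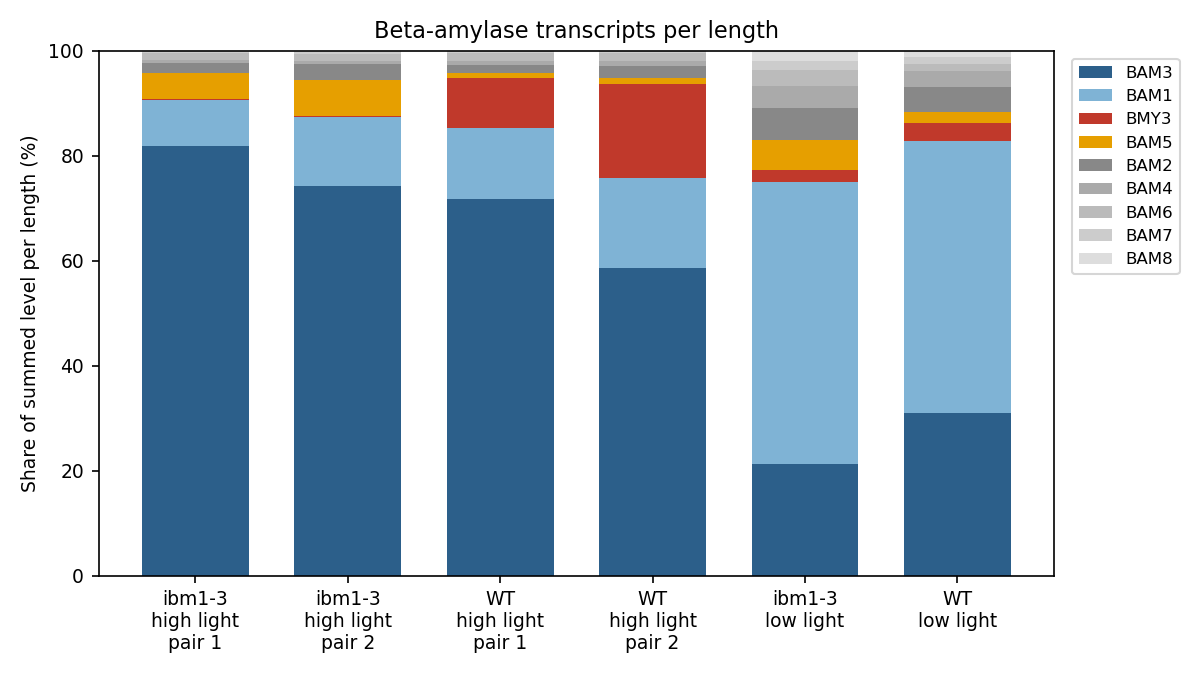
Share of each of 9 beta-amylase genes in their summed level per length (%), 1 bar per library, ibm1-3 left of WT in each light condition. BMY3 (red) makes up 0.185% and 0.335% in ibm1-3 and 9.52% and 17.8% in WT after high light, while the BAM5 segment (orange) is larger in ibm1-3.

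Within the beta-amylase family the shares of single genes differed between genotypes while the totals overlapped. The summed level of the 9 genes was 2208 and 1488 FPKM in ibm1-3 and 2146 and 1534 FPKM in WT after high light. BAM3 held 81.8% and 74.2% of it in ibm1-3, against 71.7% and 58.7% in WT. BAM1 held 8.83% and 13.2% in ibm1-3 and 13.5% and 17.1% in WT. The share of BAM5 was 5.07% and 6.86% in ibm1-3 and 0.987% and 1.21% in WT, higher in both ibm1-3 libraries. BMY3, by contrast, contributed 0.185% and 0.335% in ibm1-3, against 9.52% and 17.8% in WT.

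The debranching and glucan transfer enzymes rose strongly. ISA3, the isoamylase that trims branches during breakdown, had 118.13 and 117.34 FPKM in ibm1-3, against 4.25 and 4.37 FPKM in WT. These are 27.8-fold and 26.9-fold differences within pairs, from 4094 estimated fragments in ibm1-3 and 143 in WT in pair 1. The log2 fold change of 4.48 ± 0.07 (SE, limma adjusted p = 1.85e-08) was the highest of the 10 and ranked 34 from the top of all genes tested. ISA3 stood at percentiles 95.6 and 94.8 in ibm1-3 and at 40.9 and 40.7 in WT.

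DPE1, the plastid disproportionating enzyme, had 25.08 and 23.46 FPKM in ibm1-3, against 1.78 and 1.90 FPKM in WT. It rose by 3.15 ± 0.11 on the log2 scale (SE, limma adjusted p = 2.57e-07), the added 1 FPKM holding this below the 14.1-fold and 12.3-fold ratios of the levels. DPE2, the cytosolic transglucosidase that takes up the maltose exported at night, had 113.48 and 123.08 FPKM in ibm1-3, against 13.37 and 14.03 FPKM in WT. It rose by 3.02 ± 0.06 (SE, limma adjusted p = 4.34e-08), and neither gene overlapped between genotypes. DPE2 exceeded DPE1 per length in every library, 4.52-fold and 5.25-fold in ibm1-3 and 7.51-fold and 7.38-fold in WT after high light, and 5.88-fold in ibm1-3 and 6.83-fold in WT in low light.

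**Figure D3:**
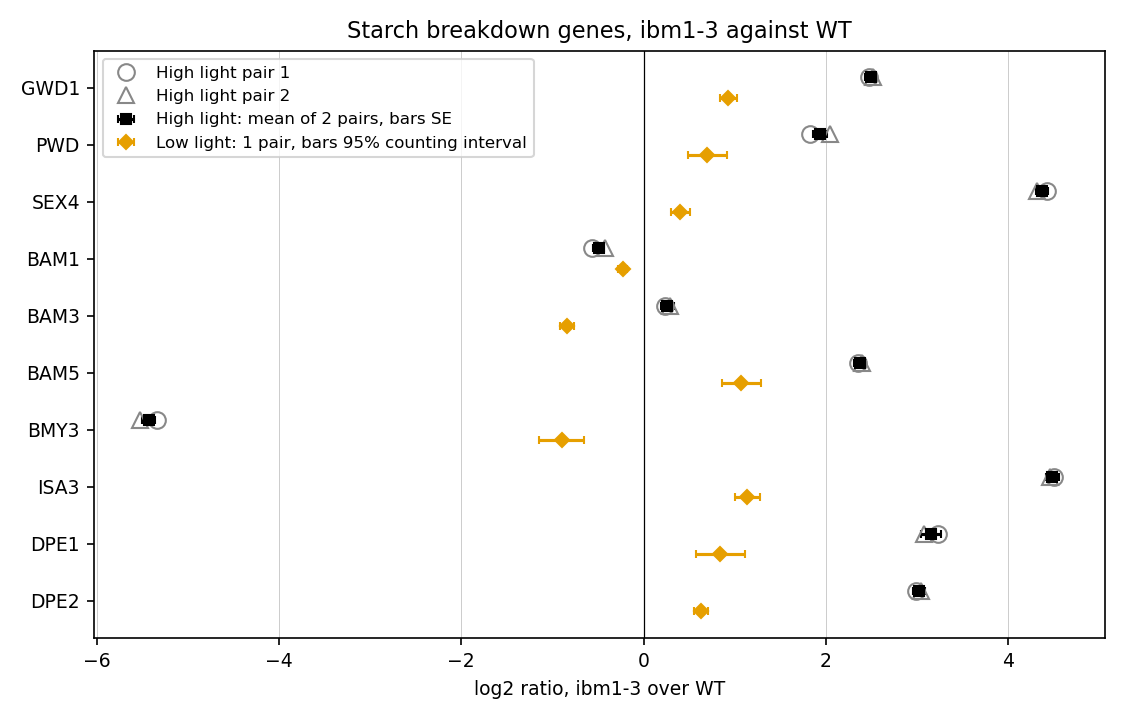
Log2 ratio of ibm1-3 over WT per gene after high light (open symbols for each pair, black squares for the mean of 2 pairs) and in low light (orange, 1 pair, bars are 95% counting intervals). Bars of the black squares are the limma SE, whose variance is moderated over genes. The 2 high light pairs nearly coincide for every gene, and BAM3 is the only member on opposite sides of 0 in high and low light. Its high light value was 0.03 with size factors.

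The pairs gave closely similar ratios. The log2 ratio of a member differed between pair 1 and pair 2 by 0.04 to 0.22, with a median of 0.09, against a median of 0.14 over all genes tested. In 9 of the 10 members, all but BAM3, the lowest library of one genotype lay above the highest of the other, beside 65.4% of 17190 genes. Without the block 7 members rose and 1 fell, beside 18.2% and 8.4% of all genes (26.6% in either direction), and BAM1 and BAM3 were the members that did not pass.

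**Figure D4:**
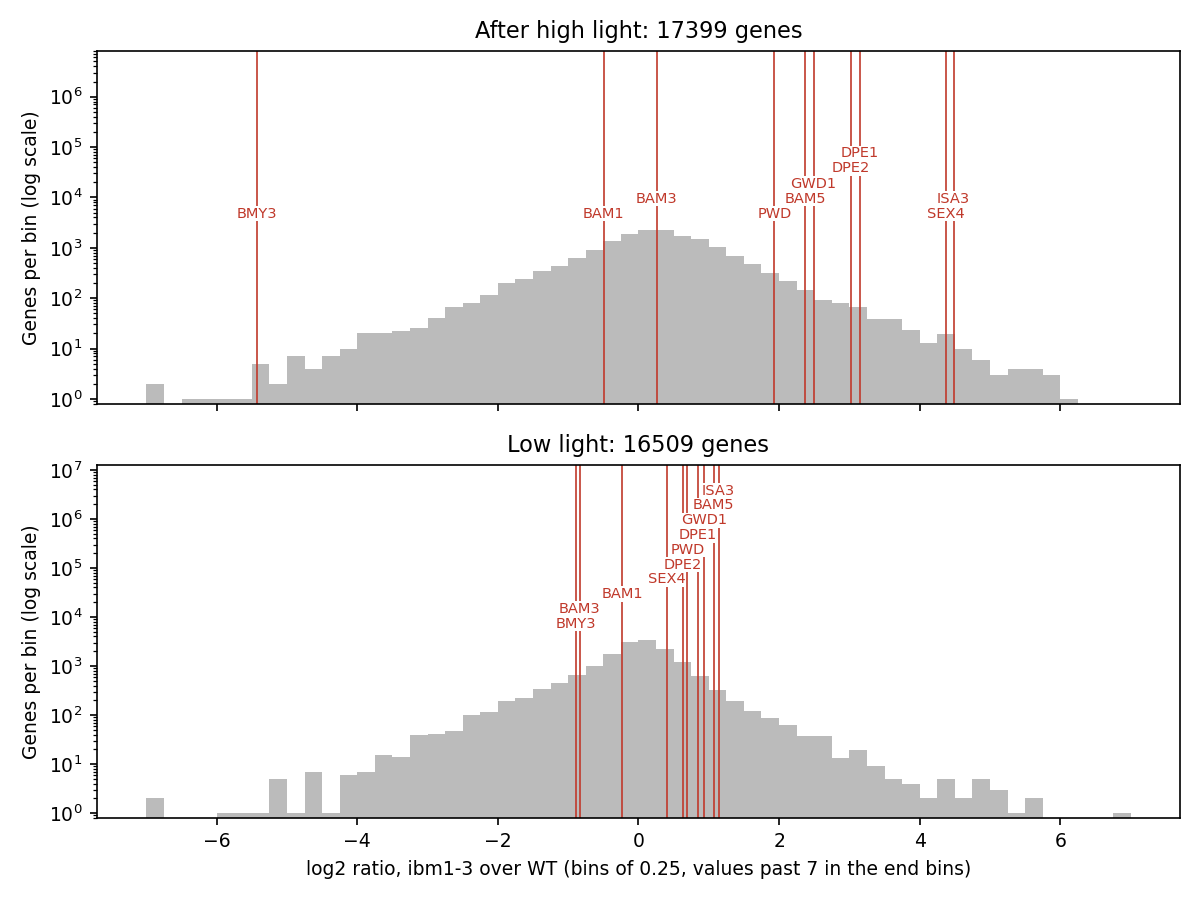
Distribution of log2 ratios of ibm1-3 over WT over all genes after high light (top, 17399 genes) and in low light (bottom, 16509 genes), genes per bin on a log axis, with a red line for each of the 10 members. After high light ISA3 and SEX4 lie in the right tail and BMY3 in the left tail, whereas BAM3 lies at the middle, and in low light all members but BAM3 lie nearer to 0.

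The order of the members by level per length differed between genotypes after high light, with means taken over the 2 separately normalized tables. In ibm1-3 BAM3 (mean 1454 FPKM) was followed by SEX4 (260.2 ± 31.0), BAM1 (195.4 ± 0.764) and GWD1 (180.6 ± 23.3; SD, n = 2), of which BAM1 and GWD1 did not differ beyond their spread. DPE2, ISA3 and BAM5 came next at 118.3 ± 6.79, 117.7 ± 0.559 and 107 ± 6.96 FPKM, with DPE2 and ISA3 within their spread, then PWD (85.0 ± 2.28), DPE1 (24.3 ± 1.15) and BMY3 (4.53 ± 0.636). In WT BAM3 (mean 1220 FPKM) was followed by BAM1 (275.6 ± 18.5) and BMY3 (238.9 ± 48.8), neighbours within their spread. GWD1 (31.4 ± 4.85), PWD (21.6 ± 3.07), BAM5 (19.9 ± 1.86), DPE2 (13.7 ± 0.467) and SEX4 (11.6 ± 0.792) followed. The means of PWD and BAM5 were within their spread, but PWD was higher in either WT library (23.78 against 21.17 FPKM and 19.44 against 18.54 FPKM). ISA3 (4.31 ± 0.0849) and DPE1 (1.84 ± 0.0849) closed the WT order. BMY3 thus stood last in ibm1-3 and just behind BAM3 and BAM1 in WT.

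Other genes of starch breakdown gave a more mixed picture. Of 20 further genes of the pathway 13 rose, 3 fell and 4 did not pass after high light, with a median log2 fold change of 0.81, beside the 49.2% of all genes that rose and 26% that fell. With size factors 11 rose and 6 fell, beside 39.1% and 34.9%, and without the block 8 rose and 0 fell, beside 18.2% and 8.4%. The 4 with the smallest p among those that rose were PHS2, PHS1, LESV and AMY3. PHS2, the cytosolic glucan phosphorylase, had 375.62 and 322.26 FPKM in ibm1-3, against 18.6 and 14.87 FPKM in WT, a log2 fold change of 4.31 ± 0.06 (SE, limma adjusted p = 1.48e-08). Its plastid counterpart PHS1 had 77.45 and 45.87 FPKM in ibm1-3, against 6.38 and 3.41 FPKM in WT (3.41 ± 0.08, limma adjusted p = 5.74e-08).

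In LESV, a protein of the starch granule matrix, the levels were 110.59 and 60.51 FPKM in ibm1-3, against 11.98 and 5.62 FPKM in WT (log2 fold change 3.16 ± 0.07). AMY3, the plastid alpha-amylase, had 73.86 and 49.89 FPKM in ibm1-3, against 6.94 and 5.23 FPKM in WT (3.13 ± 0.09). All 4 genes were high in both ibm1-3 libraries with no overlap. The 3 that fell did so by small amounts. PGLCT, the plastid glucose transporter, had 10.89 and 22.71 FPKM in ibm1-3, against 20.49 and 38.06 FPKM in WT (-0.79 ± 0.08, limma adjusted p = 6.39e-05). BAM4, a beta-amylase-like protein without activity, changed by -0.57 ± 0.10 (SE, limma adjusted p = 0.0013), and BAM7, a nuclear protein of the family, by -0.34 ± 0.12 (adjusted p = 0.0303). Without the block the limma adjusted p of these 3 was 0.300, 0.103 and 0.271.

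Clock genes moved with genotype in the same high light libraries. CCA1, a morning factor of the clock that binds the evening element, had 10.68 and 7.09 FPKM in ibm1-3, against 284.08 and 225.17 FPKM in WT, a log2 fold change of -4.71 ± 0.07 (SE, limma adjusted p = 1.79e-08). Its partner LHY had 15.47 and 11.98 FPKM in ibm1-3, against 293.94 and 219.3 FPKM in WT. The evening gene TOC1 had 65.5 and 61.65 FPKM in ibm1-3, against 19.41 and 18.16 FPKM in WT. Both morning genes were low and the evening gene high in ibm1-3, with no overlap. In low light the log2 ratio of ibm1-3 over WT was -0.03 for CCA1, 0.03 for LHY and -1.38 for TOC1. The part of these clock gene levels, and of the mesophyll markers given above, in the starch gene results was not tested.

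In low light the same genes, BAM3 excepted, differed less between genotypes. With 1 library per genotype there is no test, so each value is a log2 ratio of scaled reads with a 95% interval that covers counting error only. Past 2-fold, 2 members (ISA3 and BAM5) were higher in ibm1-3 and 0 were lower, beside 5.68% of 16509 genes higher and 9.73% lower, 15.4% in either direction. The median log2 ratio of the members was 0.66 against 0.01 over all genes. Intervals lay above 0 in 7 members and below 0 in 3. Of 15851 genes tested after high light and measured in low light, 4888 had intervals above 0 and 5120 below 0.

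Among the phosphate enzymes GWD1 had 2900 reads in ibm1-3 and 1497 in WT, a log2 ratio of 0.93 (95% interval 0.84 to 1.02). PWD had 497 reads in ibm1-3 and 301 in WT, a ratio of 0.70 (0.49 to 0.91). SEX4, which differed so widely after high light, had 1812 reads in ibm1-3 and 1346 in WT, a ratio of 0.40 (0.30 to 0.51). All 3 were higher in ibm1-3 but less than 2-fold.

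The beta-amylases again split. BAM5 had 561 reads in ibm1-3 and 262 in WT, a log2 ratio of 1.07 (0.86 to 1.29). BMY3 had 213 reads in ibm1-3 and 389 in WT, a ratio of -0.89 (-1.14 to -0.65), the same direction as after high light. For BAM3 there were 2111 reads in ibm1-3 and 3706 in WT, a ratio of -0.84 (-0.91 to -0.76), the opposite of its high light sign. That high light value was small, 0.03 with size factors, and took either sign when 1 library was left out. BAM1 had 6425 reads in ibm1-3 and 7410 in WT, a ratio of -0.23 (-0.28 to -0.18) that became 0.03 when reads were scaled by library totals.

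ISA3 had 1364 reads in ibm1-3 and 608 in WT, a log2 ratio of 1.14 (1.002 to 1.28), the highest of the members also in low light. DPE1 had 331 reads in ibm1-3 and 181 in WT (0.84, 0.58 to 1.12), and DPE2 had 3284 in ibm1-3 and 2084 in WT (0.63, 0.55 to 0.71). Both transferases were higher in ibm1-3 by less than 2-fold. Of the other 20 pathway genes 3 were past 2-fold higher and 0 past 2-fold lower, beside 5.68% and 9.73% of all genes.

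**Figure D5:**
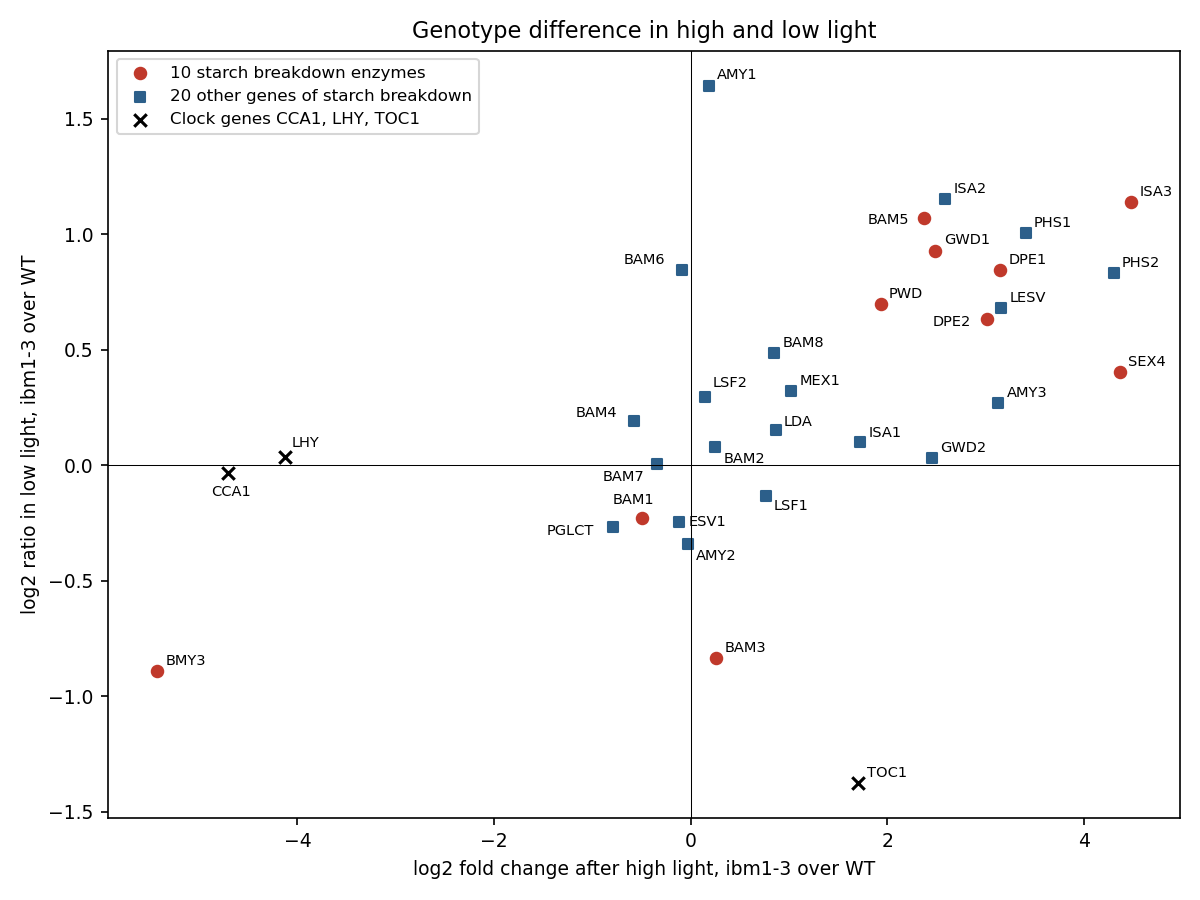
Log2 ratio of ibm1-3 over WT after high light (horizontal) against low light (vertical) for the 10 members (red circles), the 20 further starch breakdown genes (blue squares) and 3 clock genes (crosses). Of the members 9 have the same sign in both conditions, BAM3 being the exception, and CCA1 and LHY lie near 0 in low light only. The high light value of BAM3 was 0.03 with size factors.

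The genotype difference was larger after high light than in low light for most members. In size, 9 of the 10 log2 ratios were larger after high light, the exception being BAM3. The difference of the 2 genotype effects, high minus low light, was tested with limma over all 6 libraries and 17507 genes, taking the lone low light pair to vary like the high light pairs. This fit used low light values scaled by library totals, so its values are not the differences of the TMM-scaled ratios given above. It passed as positive for 8 members and as negative for 2, beside 29.9% and 30% of all genes (59.9% in either direction), with a median of 1.24 on the log2 scale. SEX4 had the highest value, 3.71 ± 0.11 (SE, limma adjusted p = 1.85e-07), followed by ISA3 at 3.14 ± 0.13 (adjusted p = 6.64e-07). BMY3 was lowest at -4.85 ± 0.14 (adjusted p = 1.43e-07). DPE1 and DPE2 had 2.16 ± 0.18 and 2.14 ± 0.11, GWD1 1.34 ± 0.11, BAM5 1.14 ± 0.12 and PWD 1.10 ± 0.14, while BAM3 had 0.83 ± 0.11 and BAM1 -0.52 ± 0.11 (SE). Without the block 4 members were positive (SEX4, ISA3, DPE1 and DPE2) and 1 negative (BMY3), beside 7.31% of all genes called. Light, plant age and table cannot be told apart in this comparison.

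Levels across light are set side by side without a test, because the tables were normalized separately. BAM3 had 76.6 RPKM (reads scaled to gene length and library total) in ibm1-3 and 114.2 RPKM in WT in low light, and BAM1 had 194.7 RPKM in ibm1-3 and 190.7 RPKM in WT, so BAM1 was the most abundant member in both low light libraries. BAM3 over BAM1 was 9.27 and 5.63 in ibm1-3 and 5.33 and 3.43 in WT after high light, against 0.394 in ibm1-3 and 0.599 in WT in low light. In rank among all genes BAM3 was 12 and 37 in ibm1-3 and 24 and 80 in WT after high light, and 1784 in ibm1-3 and 1075 in WT in low light. In low light SEX4 came next after BAM1 in ibm1-3 and BAM3 did in WT, while BMY3 was lowest in ibm1-3 and PWD, with 5.01 RPKM, in WT. BMY3 stood at percentile 46.8 in ibm1-3 and 60.9 in WT in low light, between its high light positions in the 2 genotypes. SEX4 stood at percentile 93.6 in ibm1-3 and 89.9 in WT in low light, nearer to its high light position in ibm1-3 (98.7 and 98.0) than in WT (62.2 and 58.6). The same held for DPE2, at 91.0 in ibm1-3 and 83.7 in WT in low light, 95.4 and 95.2 in ibm1-3 after high light and 64.4 in both WT high light libraries. It did not hold for ISA3, DPE1, GWD1, PWD and BAM5. Their WT low light percentiles (63.7, 44.3, 72.0, 41.7 and 51.3) were nearer to those of WT after high light. BAM1 remained between percentiles 97.3 and 98.7 in all 6 libraries.

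The genes whose pattern was most like that of ISA3 were found by distance over the 3 log2 ratios of ibm1-3 over WT (both high light pairs and low light) among 15851 genes. They were PHS2 at a distance of 0.408, AT3G15650 at 0.710 and SEX4 at 0.755. For BMY3 they were BGAL4, a beta-galactosidase, at 0.171, RVE1, a MYB-like factor related to CCA1 and LHY, at 0.390, and SQP1 at 0.871. RVE1 had log2 ratios of -5.67 and -5.47 after high light and -0.69 in low light.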

How the data were processed

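Sample titles and characteristics gave the groups. Both Illumina and BGI library protocols were used, per the labels, with no record of which library had which, and the RNA kit differs between design text and labels. The submitters' processing notes list Bowtie2 and TAIR10. Not given in the sources used here are the counting program, its strand setting and software versions. Per the file headers, the pair 1 table gives estimated counts (fragments) and FPKM. The pair 2 table has no counts, and its deposited values behave as FPKM. In both, 0.01 stands for no fragment and was set to 0. The low light table holds a signal that the authors deposited as reads times a factor per library: within 0.01 steps 100% of the values above 0 were whole steps, the smallest of 15 reads, and 5497 genes in ibm1-3 and 5419 in WT are listed at 0. Pair 1 columns carry no replicate number, and were numbered by the label that names the table. For some high light samples title and description point to different tables.

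High light was tested with limma 3.58.1 (trend, R 4.3.3) on log2(FPKM + 1), for genes of at least 1 FPKM in 2 libraries, with Benjamini-Hochberg adjustment. edgeR was planned if both tables held counts. The replicate number, which the labels tie to a table, was a block: deviations of same-numbered samples correlated at 0.895. The fit has 1 residual and 6.17 prior degrees of freedom, so its SE and p-values rest mainly on variance shared over genes. On simulated data its share of false calls was above the nominal level, and all simulations changed far fewer genes than passed in the real data. High minus low light used all 6 libraries with the table as block (1 residual and 6.62 prior degrees of freedom), and on simulated data it also exceeded the nominal level and missed many of the smaller effects. Low light reads were scaled by TMM (edgeR 4.0.16), with a prior count of 1, at least 50 reads over both libraries and exact 95% Clopper-Pearson intervals. Low light levels are RPKM, with lengths from the pair 1 table. RefSeq TAIR10.1 gave the promoters: 22259 of 22446 genes matched by locus tag and all overlapped their deposited coordinates on the same chromosome. Protein sequences were not used here. Alternatives were no block, other pseudocounts, filters and scalings, limma without trend, and leaving out each library or pair. Text names all 10 members, IBM1, the clock genes CCA1, LHY and TOC1, up to 4 further pathway genes per direction with the smallest p, and 3 pattern neighbours of the highest and lowest member. The members and lists were chosen with earlier results of these data known.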

Additional observations from a re-analysis of the deposited data

Results flagged for a closer look

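The genotype effect differed between high and low light for all 10 members by the limma test of the difference itself, in a design where light, plant age and table cannot be told apart. The same test called 59.9% of 17507 genes, and 7.31% without the table block. The high minus low value on the log2 scale, with low light levels scaled by library totals, was 3.71 for SEX4, 3.14 for ISA3, 2.16 for DPE1 and 2.14 for DPE2, and these 4 also passed without the table block. It was 1.34 for GWD1, 1.14 for BAM5, 1.10 for PWD and 0.83 for BAM3, which did not pass without the block (limma adjusted p from 0.124 to 0.554). The values were -4.85 for BMY3, which passed both ways, and -0.52 for BAM1, which had an adjusted p of 0.414 without the block. No group had enough libraries for a test of single outlying samples.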

How the results depend on the processing

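With no replicate block, 7 members rose and 1 fell after high light, and over all genes 3161 rose and 1461 fell, against 8564 and 4523 with it. For high minus low light the counts without the block were 4 positive and 1 negative, beside 7.31% of all genes called in either direction. Leaving out 1 library at a time, always without the block, gave 6 to 7 members that rose and 1 that fell, and over all genes 769 to 2480 that rose and 473 to 1155 that fell. A group then has 1 library, which is assumed to vary like the others. BAM3 was 0.6164 without ibm1-3 replicate 2 and 0.6478 without WT replicate 1, and reversed to -0.0939 without ibm1-3 replicate 1 and to -0.1253 without WT replicate 2. The cause was not tested. Scaling low light reads by library totals put 4 members past 2-fold higher. That scaling raises the log2 ratio of every gene alike, for BAM1 from -0.23 to 0.03. Since the share of all genes under it was not counted, the count of 4 is not a result about the members. Pseudocounts of 0.1 or 5, no filter, at least 5 FPKM, and limma without trend kept the counts of 8 and 2 members. Among single members after high light, 67 of the values under settings other than leaving out libraries kept direction and call and 3 lost the call. All 3 losses were in BAM1 and BAM3. Depth limits DPE1 in WT, with 44 estimated fragments in pair 1, and the depth of pair 2 is a rough estimate only. Adjusted p-values after high light rest on 1 residual and 6.17 prior degrees of freedom, so mainly on variance shared over genes.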
